A study of Homo sapiens with 12 samples.

Results

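The genes described here are 33 genes of glycolysis and of lactate and pyruvate handling, taken by symbol from a list that runs from the glucose transporters to lactate dehydrogenase, pyruvate dehydrogenase and 2 regulators. All 33 were found among the 58288 genes of the deposited tables. All 33 passed the minimum mean level over the 12 libraries, TXNIP only through its level in KOPTK1, while 32 had a mean of at least 1 RPKM in each line. The RNA-Seq libraries came from HPB-ALL and KOPTK1, established human cell lines of T-cell acute lymphoblastic leukemia (T-ALL). Per the labels, cells of each line received a pLKO.1 lentivirus carrying an shRNA against SHQ1, an assembly factor of H/ACA ribonucleoproteins, or against GFP as the control, and all were kept in 2 μg/mL puromycin for 48 h. This gave 4 conditions with 3 libraries each, 12 libraries in all, from total RNA depleted of rRNA.

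Each line has its own table with 6 library columns. Their headings are numbers, 1 to 6 in the KOPTK1 table and 7 to 12 in the HPB-ALL table, and they name neither the shRNA nor the replicate. The columns could therefore be assigned to a line, through the sample descriptions that name the table, but not to control or SHQ1 shRNA. No knockdown comparison was made, and the comparison given is between the 2 lines, each with both shRNAs among its libraries. The line and the table cannot be told apart, since each table holds 1 line. The legend of the study's splicing figure speaks of biological replicates, but the sources used here do not say how the cultures behind these libraries were kept apart, so the p-values measure the spread between these libraries, which may be technical.

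Glycolysis splits glucose into pyruvate in the cytosol, and lactate dehydrogenase then reduces pyruvate to lactate, which leaves the cell through monocarboxylate transporters. Pyruvate can instead enter mitochondria through a carrier and be turned into acetyl-CoA by pyruvate dehydrogenase, which its kinases switch off. Dividing lymphoid and leukemic cells are known for making much lactate even with oxygen present, and MYC and HIF-1 are known to raise transcription of many of these genes.

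The totals per library were 36792076 to 42842791 counts in HPB-ALL and 22884785 to 36098045 counts in KOPTK1. Levels are given as RPKM, reads per kilobase of summed exon length scaled to the total of the library. The length of the transcripts present in these cells was not measured, so the order of different genes by RPKM is approximate. PDK1, with 14253 bases, held 1044 to 2444 counts and PDK3, with 2513 bases, 596 to 1084 counts, yet PDK3 has the higher RPKM. Each gene has the same length in both lines. All 10 T-lineage markers examined, among them CD3D, CD3E and LCK, reached 1 RPKM in every library, with a summed level of 1034 to 1077 RPKM in HPB-ALL and 1036 to 1082 RPKM in KOPTK1. Single markers differed between the lines, CD2 with 12.7 to 15.0 RPKM in HPB-ALL and 36.9 to 59.8 RPKM in KOPTK1 (log2 difference -1.82), PTCRA with -0.78 and CD1A with 0.38. All 5 myeloid and both erythroid markers were below 1 RPKM in every library, as were 3 of 4 stromal and epithelial markers, with COL1A1 at 0.825 to 1.69 RPKM. Of the 5 B-lineage markers, 3 were below 1 RPKM throughout, and CD79A stood at 40.3 to 45.9 RPKM in HPB-ALL and 5.87 to 24.6 RPKM in KOPTK1. In bulk RNA, fewer cells with a transcript and less of it per cell cannot be told apart, and any part of CD79A-positive cells in the results was not tested. The level of SHQ1 was 70.3, 71.8 and 70.9 RPKM in libraries 7, 8 and 9, and 47.6, 46.4 and 49.1 RPKM in libraries 10, 11 and 12. In KOPTK1 it was 45.7, 44.1 and 46.4 RPKM in libraries 1, 2 and 3, and 41.9, 41.8 and 39.3 RPKM in libraries 4, 5 and 6.

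The KOPTK1 libraries stood in 2 sets. Over 23055 tested genes other than the members, libraries 1, 2 and 3 correlated with the median HPB-ALL profile at r = 0.919 to 0.925, and libraries 4, 5 and 6 at r = 0.830 to 0.833, while single HPB-ALL libraries gave 0.985 to 0.987 with the other HPB-ALL libraries. These are correlations across genes, which share the libraries. Over 335 other genes at least 4-fold apart between libraries 4 to 6 and HPB-ALL, libraries 1, 2 and 3 lay a median 44%, 44% and 43% of the way from libraries 4 to 6 toward HPB-ALL on the linear scale. The labels do not say whether these sets follow the shRNA, and the source of the split was not tested. Differences between the lines are therefore also given without libraries 1 to 3 and without libraries 4 to 6, settings chosen after the data were seen.

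Of the 33 genes, 27 differed between the lines in edgeR's quasi-likelihood test at a Benjamini-Hochberg adjusted p under 0.05, 21 higher in HPB-ALL and 6 higher in KOPTK1. Among all 23088 genes tested, 64.9% differed, 31.2% higher in HPB-ALL and 33.7% higher in KOPTK1. The members thus lay more often on the HPB-ALL side than genes at large, 63.6% against 31.2%, with 18.2% against 33.7% on the KOPTK1 side. Over the 32 members with at least 1 RPKM in each line, which leave out TXNIP, the 2 shares were 65.6% and 15.6%. The median log2 difference, HPB-ALL minus KOPTK1, was 0.20 over the members and -0.03 over all tested genes. The median size of the difference without its sign was 0.28 and 0.31, so the members did not stand out in size. With a change of at least 1.5-fold required as well, 6 members remained, 3 in each direction, a share to be read against 24.3% of all tested genes. PFKM, ALDOC and TXNIP were the 3 toward KOPTK1, and TXNIP passed the minimum level only through that line. The 6 higher in KOPTK1 were SLC2A3, PFKL, PFKM, ALDOC, HIF1A and TXNIP, or 5 among the 32 members with at least 1 RPKM in each line, which leave out TXNIP, and the 6 without a call were HK1, PFKP, PFKFB3, TPI1, ENO2 and PDK3.

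Without libraries 1 to 3, 30 members differed, 24 higher in HPB-ALL and 6 higher in KOPTK1, against 69.6%, 35.2% and 34.4% of all genes. Without libraries 4 to 6, the counts were 24, 18 and 6, against 53.4%, 26.7% and 26.7%. TXNIP was among the 6 higher in KOPTK1 in both settings. The 6 libraries of HPB-ALL and the 6 of KOPTK1 did not overlap in RPKM for 23 members, or 22 of 32 without TXNIP, a pattern found in 45.4% of all tested genes. The members as a whole took 0.736% to 0.771% of the counts in HPB-ALL and 0.583% to 0.661% in KOPTK1.

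**Figure D1:**
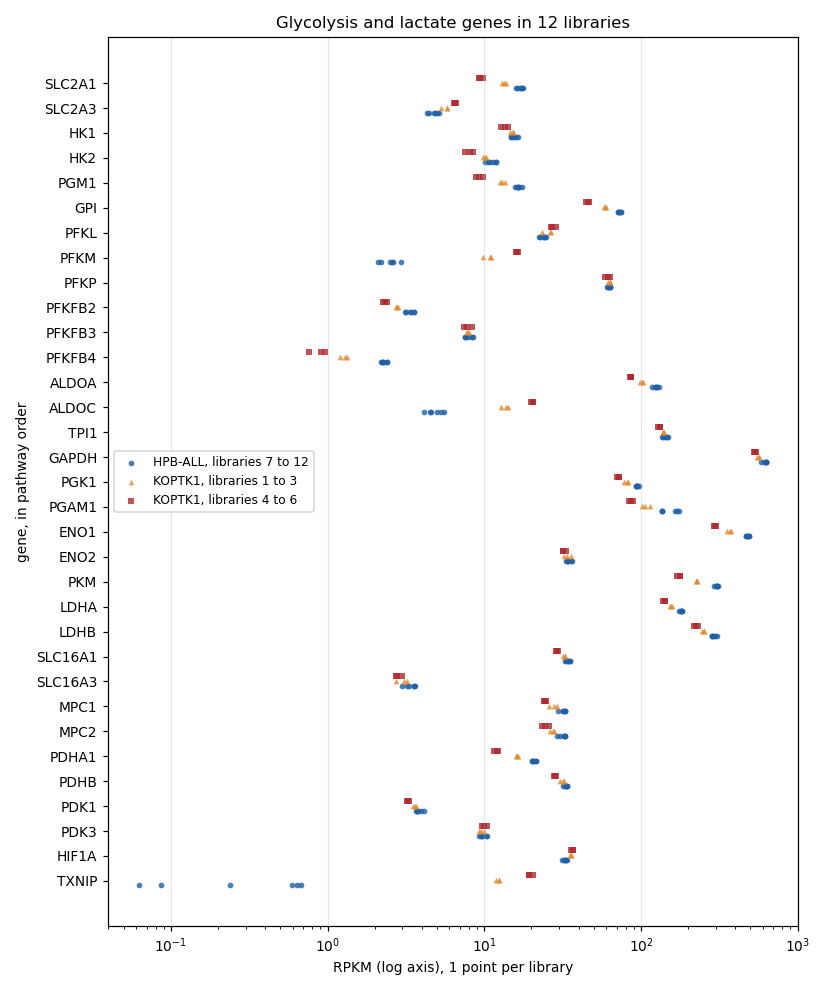
RPKM of each of the 33 genes in each library on a log axis, with genes in pathway order from the top, blue circles for HPB-ALL, orange triangles for KOPTK1 libraries 1 to 3 and red squares for KOPTK1 libraries 4 to 6. GAPDH lies at the high end with 528 to 632 RPKM, TXNIP in HPB-ALL at the low end with 0.0628 to 0.680 RPKM, and in most rows the triangles lie between the squares and the circles.

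The glucose transporters differed in opposite directions. SLC2A1 encodes GLUT1, the widely expressed basal glucose carrier, and lies at chr1:42925375-42959173 on the minus strand of GRCh38. Its level in HPB-ALL was 16.0 RPKM at the lowest, 17.0 at the median and 17.7 at the highest library, and in KOPTK1 it was 9.32, 11.3 and 13.8 RPKM. The ranges did not overlap, and the level was 1.46-fold higher in HPB-ALL (log2 difference 0.54 ± 0.10 SE, adjusted p = 3.1e-04). SLC2A3, for the high-affinity carrier GLUT3, went the other way, with 4.30, 4.83 and 5.18 RPKM in HPB-ALL and 5.30, 6.11 and 6.61 RPKM in KOPTK1. It was 1.28-fold higher in KOPTK1 (log2 difference -0.36 ± 0.07 SE, adjusted p = 3.0e-04). The SLC2A3 value is uncertain, because 3 pseudogene rows of this gene held 97.4% to 183% as many counts as the gene itself.

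The enzymes that trap glucose and rearrange glucose phosphate were level or higher in HPB-ALL. HK1 and HK2 encode hexokinases, which phosphorylate glucose on entry. HK1 had a median of 15.4 RPKM in HPB-ALL and 14.4 RPKM in KOPTK1 with overlapping ranges (log2 difference 0.10 ± 0.05 SE, adjusted p = 0.061), and its call depended on the scaling and on the libraries. It passed with DESeq2's size factors (0.13), with library totals (0.12) and with no filter (0.18), without library 1, 2 or 3 alone (0.12 to 0.13) and without all 3 (0.21). HK2, the hexokinase known to be induced in many tumours, lies at chr2:74833981-74893359 and measured 10.1, 11.2 and 11.9 RPKM in HPB-ALL against 7.58, 9.12 and 10.3 RPKM in KOPTK1. It was 1.22-fold higher in HPB-ALL (adjusted p = 0.0047), although library 1 of KOPTK1 lay above the lowest HPB-ALL library. PGM1, which links glycogen to glucose 6-phosphate, was at 15.7 to 17.4 RPKM in HPB-ALL and 8.85 to 13.5 RPKM in KOPTK1, 1.46-fold higher in HPB-ALL. GPI, which converts glucose 6-phosphate to fructose 6-phosphate, ranged from 71.1 to 75.2 RPKM against 44.9 to 59.5 RPKM, 1.38-fold higher in HPB-ALL.

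Phosphofructokinase catalyses the main committed step, and its 3 subunit genes differed in composition between the lines. PFKP, the platelet-type subunit, was the most abundant of the 3 in every library, at 61.0 to 63.8 RPKM in HPB-ALL and 58.8 to 63.6 RPKM in KOPTK1. Its log2 difference was -0.01 ± 0.03 SE (adjusted p = 0.85), and the sign turned under other scalings. PFKL, the liver-type subunit, stood at 22.3 to 24.6 RPKM in HPB-ALL and 23.5 to 28.8 RPKM in KOPTK1, 1.13-fold higher in KOPTK1 (adjusted p = 0.0033), a call lost with no filter on low values.

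PFKM, the muscle-type subunit gene at chr12:48105923-48146404, carried the difference. Libraries 7 to 12 of HPB-ALL gave 2.20, 2.61, 2.10, 2.499, 2.94 and 2.57 RPKM. Libraries 1 to 6 of KOPTK1 gave 11.1, 9.79, 10.9, 16.2, 16.4 and 15.9 RPKM. Every KOPTK1 library was above every HPB-ALL library, and within KOPTK1 libraries 4 to 6 were above libraries 1 to 3. PFKM was 5.42-fold higher in KOPTK1 (log2 difference -2.44 ± 0.14 SE, adjusted p = 2.8e-08), and the log2 difference was -2.69 without libraries 1 to 3 and -2.09 without libraries 4 to 6.

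The ratios of subunits within a library, which do not depend on how libraries were scaled to each other, showed the same contrast. PFKL exceeded PFKM 8.13- to 11.8-fold in HPB-ALL libraries and 1.64- to 2.69-fold in KOPTK1 libraries (exact permutation test, two-sided, p = 0.00216, the smallest that 6 against 6 libraries can give, adjusted p = 0.00361 over 15 pairs of genes). The PFKM/PFKP ratio had a median of 0.0414 in HPB-ALL and 0.218 in KOPTK1, with ranges that did not overlap and the same exact p.

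The PFKFB genes encode the enzymes that make and break fructose 2,6-bisphosphate, the allosteric activator of phosphofructokinase. PFKFB4 at chr3:48517684-48556890 measured 2.27, 2.41, 2.21, 2.41, 2.22 and 2.28 RPKM in libraries 7 to 12. In libraries 1 to 6 of KOPTK1 it measured 1.20, 1.34, 1.29, 0.968, 0.765 and 0.914 RPKM. It was 2.09-fold higher in HPB-ALL with no overlap (log2 difference 1.07 ± 0.12 SE, adjusted p = 4.2e-06), from a gene with 71 to 364 counts per library. PFKFB2 was 1.31-fold higher in HPB-ALL, at 3.15 to 3.58 RPKM against 2.26 to 2.84 RPKM (adjusted p = 1.7e-04). PFKFB3, the form with the strongest kinase activity, had medians of 7.87 RPKM in HPB-ALL and 7.78 RPKM in KOPTK1 (log2 difference 0.00 ± 0.04 SE, adjusted p = 0.95). The PFKFB3/PFKFB4 ratio was 3.13 to 3.77 in HPB-ALL and 5.78 to 10.9 in KOPTK1 (exact permutation p = 0.00216, adjusted p = 0.00361).

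Aldolase splits fructose 1,6-bisphosphate, and its A and C genes differed in opposite directions. ALDOA, the main form in most tissues, was at 118, 125 and 130 RPKM in HPB-ALL and 85.4, 92.9 and 104 RPKM in KOPTK1, 1.32-fold higher in HPB-ALL (adjusted p = 3.2e-05). ALDOC, the form known from brain, lies at chr17:28573115-28577264 on the minus strand and measured 4.49, 4.13, 4.98, 4.60, 5.29 and 5.51 RPKM in libraries 7 to 12. In libraries 1 to 6 it measured 12.9, 14.3, 13.7, 19.97, 20.5 and 20.5 RPKM, so that every KOPTK1 library was above every HPB-ALL library. ALDOC was 3.54-fold higher in KOPTK1 (log2 difference -1.82 ± 0.13 SE, adjusted p = 1.1e-07), with -2.06 without libraries 1 to 3 and -1.50 without libraries 4 to 6. The ALDOA/ALDOC ratio was 21.5 to 30.8 in HPB-ALL and 4.17 to 7.93 in KOPTK1 (exact permutation p = 0.00216, adjusted p = 0.00361).

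**Figure D2:**
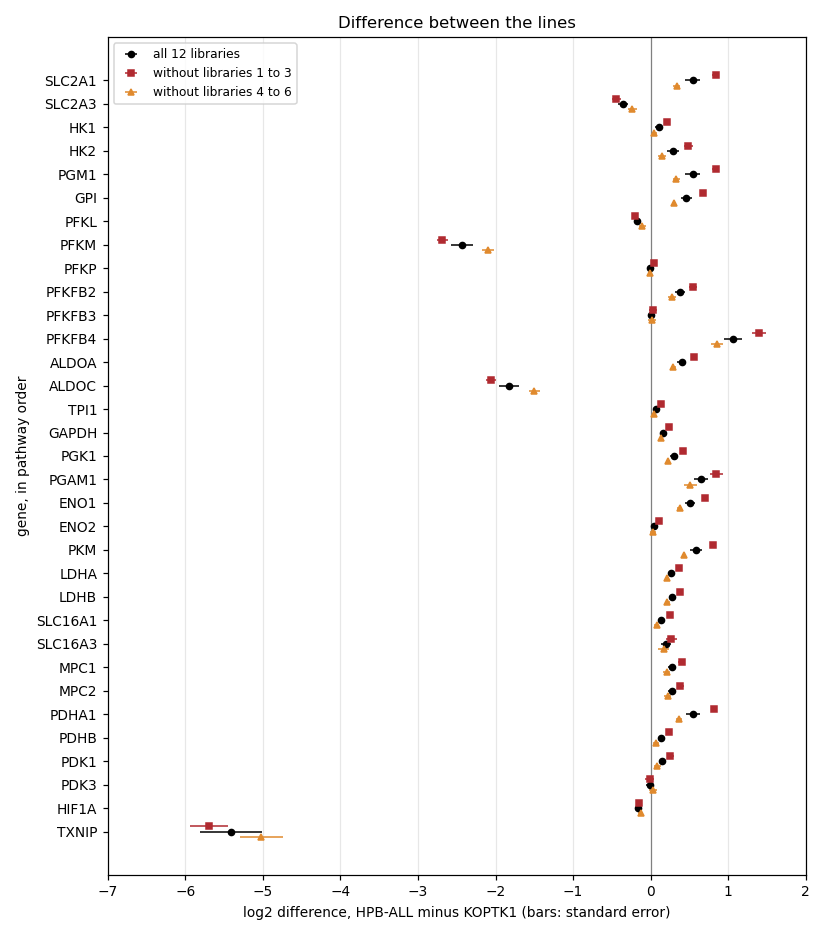
Log2 difference between the lines, HPB-ALL minus KOPTK1, for each gene with its standard error as a bar, from all 12 libraries (black circles), without KOPTK1 libraries 1 to 3 (red squares) and without libraries 4 to 6 (orange triangles). TXNIP at -5.41, PFKM at -2.44 and ALDOC at -1.82 lie far to the left and PFKFB4 at 1.07 to the right, while most of the other genes sit between 0 and 1.

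From triose phosphate to pyruvate, GAPDH, PGK1, PGAM1, ENO1 and PKM were higher in HPB-ALL, and TPI1 and ENO2 had no call. GAPDH, which oxidises glyceraldehyde 3-phosphate, was the 16th gene by median RPKM in HPB-ALL and the 32nd in KOPTK1, at 588, 628 and 632 RPKM against 528, 546 and 570 RPKM. It was 1.12-fold higher in HPB-ALL (adjusted p = 3.8e-04). PGK1, the first ATP-producing enzyme, was 1.23-fold higher, at 93.1 to 97.2 RPKM against 70.9 to 82.4 RPKM. ENO1, the ubiquitous enolase, was at 468, 474 and 488 RPKM in HPB-ALL and 294, 327 and 377 RPKM in KOPTK1, 1.42-fold higher in HPB-ALL (adjusted p = 1.7e-05). TPI1, which interconverts the triose phosphates, had medians of 144 and 135 RPKM (adjusted p = 0.083), and ENO2, the neuron-type enolase, had medians of 34.3 and 32.9 RPKM (adjusted p = 0.22). The call on TPI1 depended on the scaling as for HK1, and it also passed without library 3 or 12 alone (log2 difference 0.09 and 0.08) and without libraries 1 to 3 (0.14). ENO2 passed with no filter (0.13), without library 3 (0.09) and without libraries 1 to 3 (0.11), against 0.05 with all libraries. The ENO1/ENO2 ratio was 12.9 to 14.4 in HPB-ALL and 8.80 to 11.01 in KOPTK1 (exact permutation p = 0.00216, adjusted p = 0.00361).

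PGAM1, which moves the phosphate of 3-phosphoglycerate, varied within HPB-ALL more than its neighbours in the pathway. It measured 166, 175 and 170 RPKM in libraries 7, 8 and 9 and 137, 136 and 136 RPKM in libraries 10, 11 and 12. The KOPTK1 range was 84.3 to 115 RPKM, with a median of 95.0 RPKM, below all HPB-ALL libraries. PGAM1 was 1.57-fold higher in HPB-ALL (log2 difference 0.65 ± 0.09 SE, adjusted p = 4.7e-05). The highest over the lowest HPB-ALL library was 1.28 for PGAM1, against 1.04 for ENO1 and a median of 1.08 over the 23 members with at least 10 RPKM in that line.

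PKM encodes pyruvate kinase, which makes pyruvate and ATP, and lies at chr15:72199029-72231822 on the minus strand. The gene counts do not separate its M1 and M2 splice forms. PKM was at 294, 306 and 309 RPKM in HPB-ALL and 171, 201 and 228 RPKM in KOPTK1. It was 1.501-fold higher in HPB-ALL with no overlap (log2 difference 0.59 ± 0.08 SE, adjusted p = 1.7e-05), and the log2 difference was 0.81 without libraries 1 to 3 and 0.42 without libraries 4 to 6.

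Both lactate dehydrogenase genes were higher in HPB-ALL by nearly the same factor. LDHA, the subunit that favours lactate formation, at chr11:18394388-18408425, measured 176, 181 and 184 RPKM in HPB-ALL and 139, 149 and 158 RPKM in KOPTK1. The fold was 1.20 (log2 difference 0.27 ± 0.04 SE, adjusted p = 2.3e-05). LDHB, the subunit that favours lactate use, measured 283, 288 and 306 RPKM against 220, 240 and 253 RPKM, 1.21-fold higher in HPB-ALL (adjusted p = 5.4e-05). Its RPKM was above that of LDHA in every library. Before division by length, LDHB held 8462 to 20430 counts per library and LDHA 9746 to 23336. The summed exon length is 1586 bases for LDHB and 2969 bases for LDHA. Which of the transcripts was more abundant was therefore not tested. The LDHA/LDHB ratio had a median of 0.619 in HPB-ALL, with a range of 0.601 to 0.643, and of 0.623 in KOPTK1, with a range of 0.615 to 0.651 (exact permutation p = 0.645, adjusted p = 0.691).

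The lactate exporters differed little in size. SLC16A1 encodes MCT1 and was at 32.9 to 35.5 RPKM in HPB-ALL and 28.8 to 32.8 RPKM in KOPTK1, 1.10-fold higher in HPB-ALL (adjusted p = 0.0060). SLC16A3 encodes MCT4, the exporter known from strongly glycolytic cells, and was low in both lines at 2.98 to 3.63 RPKM and 2.74 to 3.20 RPKM, 1.15-fold higher in HPB-ALL (adjusted p = 0.015). Without libraries 4 to 6 the SLC16A3 difference was of similar size but did not pass (log2 difference 0.17 against 0.20, adjusted p = 0.053). The SLC16A1/SLC16A3 ratio was 9.40 to 11.1 in HPB-ALL and 9.63 to 11.98 in KOPTK1 (exact permutation p = 0.368, adjusted p = 0.425).

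The mitochondrial branch followed the same side. MPC1 and MPC2, whose products form the mitochondrial pyruvate carrier, each had a median of 32.4 RPKM in HPB-ALL, and medians of 25.4 and 26.0 RPKM in KOPTK1, with folds of 1.21 and 1.21. The MPC1/MPC2 ratio was 0.912 to 1.13 in HPB-ALL and 0.936 to 1.07 in KOPTK1 (exact permutation p = 0.957, adjusted p = 0.957). PDHA1 and PDHB encode the alpha and beta subunits of the E1 component of pyruvate dehydrogenase. PDHA1, on the X chromosome, was at 20.2, 20.6 and 21.5 RPKM in HPB-ALL and 11.6, 14.1 and 16.4 RPKM in KOPTK1, 1.47-fold higher in HPB-ALL (adjusted p = 1.1e-04). PDHB had medians of 33.4 and 29.7 RPKM, 1.10-fold higher in HPB-ALL (adjusted p = 0.014), a call lost without libraries 4 to 6 (log2 difference 0.07 against 0.13, adjusted p = 0.13). The PDHA1/PDHB ratio did not overlap, at 0.603 to 0.681 in HPB-ALL and 0.401 to 0.537 in KOPTK1 (exact permutation p = 0.00216, adjusted p = 0.00361). A pseudogene row of PDHA1 held 4.19% to 10.9% as many counts as the gene.

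Of the kinases that inactivate pyruvate dehydrogenase, the members PDK1 and PDK3 differed little in size between the lines. PDK2, not a member, was at 5.80 to 6.77 RPKM in HPB-ALL and 6.91 to 7.57 RPKM in KOPTK1. It was 1.19-fold higher in KOPTK1 (log2 difference -0.25 ± 0.05 SE, adjusted p = 4.5e-04), and PDK4 did not pass the minimum level. PDK1 was at 3.70 to 4.13 RPKM in HPB-ALL and 3.20 to 3.67 RPKM in KOPTK1, 1.11-fold higher in HPB-ALL (adjusted p = 0.012), a call lost without libraries 4 to 6 (log2 difference 0.09 against 0.15, adjusted p = 0.10). PDK3 had medians of 9.69 and 9.83 RPKM (log2 difference -0.01 ± 0.04 SE, adjusted p = 0.84), with a sign that turned under other scalings.

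Of the 15 pairs of related genes, 11 differed in their ratio between the lines at an adjusted p under 0.05 and 9 did not overlap. Besides those above, SLC2A1 exceeded SLC2A3 3.13- to 3.98-fold in HPB-ALL and 1.42- to 2.61-fold in KOPTK1, and the PFKFB2/PFKFB3 and PFKFB2/PFKFB4 ratios did not overlap either. The SLC2A1/SLC2A3 ratio is as uncertain as the SLC2A3 value, because of the counts in the pseudogene rows of SLC2A3. The 4 pairs without a call were LDHA/LDHB, SLC16A1/SLC16A3, MPC1/MPC2 and PDK1/PDK3, the last with an exact permutation p of 0.0455 and an adjusted p of 0.0568. The HK1/HK2 and PFKL/PFKP ratios overlapped between the lines and differed at adjusted p = 0.0236 and 0.0130 in the same exact test, and both calls were lost without libraries 4 to 6. The HK1/HK2 call was also lost without library 4, 5, 7 or 8 alone, with log2 ratio differences of -0.17, -0.16, -0.16 and -0.17 against -0.19 with all libraries, and PDK1/PDK3 passed without library 2, 3 or 10, at 0.19, 0.19 and 0.18 against 0.16.

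Of the 2 regulators, HIF1A was higher in KOPTK1 and TXNIP was below 1 RPKM in every HPB-ALL library. HIF1A encodes the oxygen-regulated subunit of HIF-1, which is controlled largely by protein stability, and its transcript was at 31.3, 32.8 and 33.6 RPKM in HPB-ALL and 35.2, 35.9 and 37.1 RPKM in KOPTK1. The ranges did not overlap and the fold was 1.12 (log2 difference -0.16 ± 0.03 SE, adjusted p = 1.1e-04). TXNIP encodes the thioredoxin-interacting protein, which restrains glucose uptake and is known to be induced by glucose, and lies at chr1:145992435-145996600 on the minus strand. In HPB-ALL it measured 0.240, 0.0628 and 0.0872 RPKM in libraries 7, 8 and 9, and 0.592, 0.635 and 0.680 RPKM in libraries 10, 11 and 12. In KOPTK1 it measured 12.4, 11.9 and 12.4 RPKM in libraries 1, 2 and 3, and 19.4, 20.6 and 19.2 RPKM in libraries 4, 5 and 6.

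The fitted TXNIP level was 42.4-fold higher in KOPTK1 (log2 difference -5.41 ± 0.40 SE). TXNIP passed the minimum level only through KOPTK1, the line where it is high, so this fold is given as a description with no test. Its lowest library held 8 counts and its highest 1709. Without libraries 1 to 3 the fold was 51.7, and without libraries 4 to 6 the log2 difference was -5.02. Within HPB-ALL its highest library exceeded the lowest 10.8-fold. For all other members the highest HPB-ALL library was less than 1.5-fold above the lowest.

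**Figure D3:**
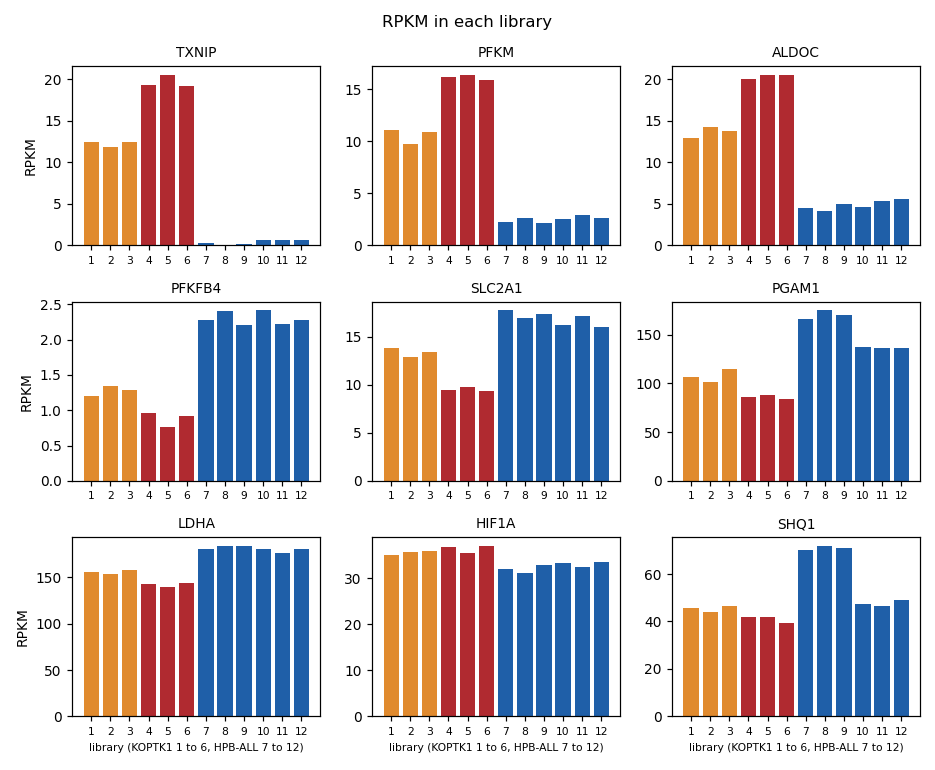
RPKM in each library on linear axes from 0, with KOPTK1 libraries 1 to 3 in orange, KOPTK1 libraries 4 to 6 in red and HPB-ALL libraries 7 to 12 in blue, for 8 members and for SHQ1, the gene targeted by the shRNA. TXNIP, PFKM and ALDOC are higher in KOPTK1 and PFKFB4, SLC2A1, PGAM1 and LDHA in HPB-ALL, and TXNIP, PGAM1 and SHQ1 differ between HPB-ALL libraries 7 to 9 and 10 to 12.

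In KOPTK1 the members followed the split of the libraries. For 27 members, 81.8%, each of libraries 1 to 3 lay between the median of libraries 4 to 6 and that of HPB-ALL, against 54.0% of all tested genes. These shares are not matched for level. In KOPTK1, 25 of the 33 members but 8538 of the 23088 tested genes had a mean of at least 10 RPKM. The part of level in the gap was not tested. Over the 11 members at least 1.5-fold apart between the medians of libraries 4 to 6 and of HPB-ALL, a lower limit than the 4-fold used for the other genes, libraries 1, 2 and 3 lay a median 42.5%, 39.6% and 43.2% of the way toward HPB-ALL. The position of single members went from 27.4% for PFKFB4 to 51.9% for SLC2A1, with 36.8% for TXNIP, 38.9% for PFKM and 42.9% for ALDOC. The members at 10 RPKM or more in KOPTK1, 25 genes, had a median of 1.21 for the highest over the lowest library, and the median of all genes at that level was 1.21 too. In HPB-ALL these medians were 1.08 for 23 members and 1.11 for all genes.

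The promoters were searched for the E-box CACGTG, a motif that MYC and the glucose-responsive factors MondoA and ChREBP are known to bind. RefSeq windows of 250 bases before to 50 bases after a start site were at hand for 30 members, 62 windows in all. CACGTG, which reads the same on both strands, was present in 7 member windows (11.3%), from 7 members, against 7.26% of all 35116 windows. The shorter ACGTG, the core of the HIF response element, which lies within CACGTG and was searched on both strands, was present in 22 member windows (35.5%) against 21.4% of all windows. The 4 windows shown are HK2 and LDHA, each with 2 E-boxes, and ALDOA and ALDOC, which hold 1 each and differ in opposite directions between the lines. They are from GRCh38.p14, on the strand of the gene, with the E-box in capitals.
HK2, chr2:74834920-74835219, plus strand: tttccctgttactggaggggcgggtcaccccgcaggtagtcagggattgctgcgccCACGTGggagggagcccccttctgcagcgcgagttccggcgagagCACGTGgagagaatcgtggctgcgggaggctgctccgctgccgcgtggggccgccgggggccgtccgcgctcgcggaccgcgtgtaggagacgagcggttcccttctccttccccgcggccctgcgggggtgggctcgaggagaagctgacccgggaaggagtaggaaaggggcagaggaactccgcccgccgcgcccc
LDHA, chr11:18394313-18394612, plus strand: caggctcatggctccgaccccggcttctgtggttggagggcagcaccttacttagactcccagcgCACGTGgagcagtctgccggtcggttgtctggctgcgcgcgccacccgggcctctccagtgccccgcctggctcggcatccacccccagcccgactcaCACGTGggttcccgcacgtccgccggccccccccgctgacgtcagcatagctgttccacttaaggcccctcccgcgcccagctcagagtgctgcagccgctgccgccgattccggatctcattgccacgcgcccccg
ALDOA, chr16:30064247-30064546, plus strand: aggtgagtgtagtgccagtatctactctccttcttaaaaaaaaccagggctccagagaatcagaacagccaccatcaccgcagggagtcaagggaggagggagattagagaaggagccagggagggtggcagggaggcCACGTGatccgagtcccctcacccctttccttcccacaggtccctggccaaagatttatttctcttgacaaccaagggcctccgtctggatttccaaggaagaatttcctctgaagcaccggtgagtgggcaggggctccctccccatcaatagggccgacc
ALDOC, chr17:28576846-28577145, minus strand: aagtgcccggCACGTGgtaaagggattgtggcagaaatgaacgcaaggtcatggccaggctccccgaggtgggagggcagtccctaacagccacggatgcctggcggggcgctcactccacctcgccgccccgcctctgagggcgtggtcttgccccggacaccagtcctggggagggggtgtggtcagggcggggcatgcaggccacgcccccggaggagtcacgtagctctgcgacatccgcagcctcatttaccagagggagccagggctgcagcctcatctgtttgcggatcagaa
In these windows the first base of the E-box lay 194 and 149 bases before the start site of HK2, 185 and 87 bases before that of LDHA, 112 before that of ALDOA and 240 before that of ALDOC. A match is a description of the letters and not a site of binding.

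Among 46 other genes of the pathway, such as further isoforms, the E2 and E3 parts of pyruvate dehydrogenase and the HIF hydroxylases, 31 passed the minimum level, SLC16A8 only through its level in HPB-ALL. Of these, 18 were higher in HPB-ALL, SLC16A8 among them, and 9 higher in KOPTK1, 87.1% against 64.9% of all genes. The largest differences toward HPB-ALL were in SLC2A8, for the carrier GLUT8 (log2 difference 1.57 ± 0.38 SE, adjusted p = 0.0024), ENO3, the muscle enolase (1.22 ± 0.22 SE, adjusted p = 2.7e-04), SLC16A8, for MCT3 (0.92 ± 0.17 SE), DLAT, the E2 part of pyruvate dehydrogenase (0.85 ± 0.14 SE), and G6PC3, a glucose 6-phosphatase (0.85 ± 0.15 SE). Toward KOPTK1 they were in SLC2A6, for the carrier GLUT6 (-0.69 ± 0.07 SE), LDHD, the D-lactate dehydrogenase (-0.53 ± 0.08 SE), PDP1, the phosphatase that reactivates pyruvate dehydrogenase (-0.50 ± 0.06 SE), BPGM, which makes 2,3-bisphosphoglycerate (-0.50 ± 0.06 SE), and MYC (-0.28 ± 0.04 SE). MYC measured 67.0 to 78.3 RPKM in HPB-ALL and 84.2 to 89.2 RPKM in KOPTK1, without overlap (adjusted p = 7.3e-05). ARRDC4, the paralogue of TXNIP, had medians of 1.41 and 1.22 RPKM (log2 difference 0.15 ± 0.13 SE, adjusted p = 0.34).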

How the data were processed

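RNA-Seq was done on 12 libraries of HPB-ALL and KOPTK1 cells, 6 per line. The authors deposited 1 table per line, with an expected count per gene and library for 58288 Ensembl genes in GRCh38 coordinates, although the tables are titled RPKM. These expected counts were made by the authors, and 15.1% to 17.3% of genes in a library held a value that was not whole, for a reason not given in the sources used here. The submitters' processing notes name Trimmomatic 0.36, STAR 2.5.4b, Picard 2.18.7, featureCounts 1.6.2 and edgeR 3.22.3 with hg38, whereas the methods name Bowtie 2 and hg19 for the splicing analysis. How multi-mapped reads and strand were treated is not given in the sources used here, so reads of a gene and of an antisense or near-identical copy cannot be told apart. The tables also hold the authors' own comparison (log fold change, average log CPM, F, p and FDR), which was not used. The 12 number-headed columns were assigned to a line because the descriptions of that line's 6 samples, and of no others, name the table. The knockdown within a line could not be tested, because no column names its shRNA.

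The tables were joined by gene, counts rounded to whole numbers, and 23088 genes with a mean of at least 1 RPKM were tested with edgeR 4.0.16 (R 4.3.3): TMM factors, glmQLFit and glmQLFTest with the line as the only term, and Benjamini-Hochberg adjustment over all tested genes at 0.05. The standard error was derived from the log2 difference and F. RPKM values used library totals, without TMM factors. Ratios of 15 pairs of genes within a library were compared by an exact two-sided permutation test over 924 arrangements (numpy 2.4.6) and adjusted over the pairs (statsmodels 0.14.6). Symbols matched 95.8% of the identifiers. Promoter windows were taken from RefSeq (GRCh38.p14).

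The members and lists were chosen with earlier results of these data known. All members were named, and of the other pathway genes those past the threshold with the largest difference, at most 5 each way. The other named genes were taken from fixed lists of markers and pathway genes (ARRDC4, PDK2 and PDK4 were named after their values were seen). In 5 simulations of 23088 genes with 200 changed by 1 on the log2 scale, the fit recovered 91.7% of the changed genes, and 4.38% of its calls were false. The simulated libraries had no split within a line, and far fewer genes changed than the 64.9% called in the data. These shares therefore do not carry over to the calls given here. Alternatives were DESeq2 size factors, library totals, no filter, a mean of at least 10 RPKM, the DESeq2 1.42.0 test, a minimum change of 1.5-fold, leaving out each library, ratios not divided by length and, added after the data were seen, leaving out KOPTK1 libraries 1 to 3 or 4 to 6.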

Additional observations from a re-analysis of the deposited data

Results flagged for a closer look

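In each line, the lowest or highest of the 6 RPKM values of each member was compared with the others by Dixon's criterion, 66 groups in all, and 2 (3.03%) were flagged. Chance flags about 1 in 20 groups when the 6 values are alike in origin. Each line holds libraries of 2 shRNAs, so this rate may not hold here. PKM in HPB-ALL library 12 was at 294.1 RPKM, below the other 5 libraries at 303.8 to 309.4 RPKM. MPC1 in HPB-ALL library 10 was at 29.62 RPKM, below the others at 31.85 to 32.9 RPKM.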

How the results depend on the processing

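No paired analysis was possible because the library columns carry neither the shRNA nor the replicate number. The line is confounded with the table, KOPTK1 libraries were less deep, and each line mixes both shRNAs, whose part in its spread was not tested. Of the results for single members under the alternatives, 576 kept their direction and side of the threshold, 18 newly passed it (in HK1, TPI1 and ENO2), 4 no longer passed it and 20 turned sign, none of the 20 with a call. With a mean of at least 10 RPKM, 6430 genes differed (3280 higher in HPB-ALL, 3150 in KOPTK1), as did 20 members (17 and 3) and 13 other pathway genes. The number tested in this setting was not recorded, so exact shares are not given. Within single lines, 8388 tested genes and 23 members had a mean of at least 10 RPKM in HPB-ALL, and 8538 and 25 in KOPTK1. Against either number, the 6430 genes that differed are the larger part. The member counts at this level are therefore not read as a result about the members. With a minimum change of 1.5-fold the counts were 5605 genes (2204 and 3401), 6 members (3 and 3) and 8 other pathway genes. TXNIP was among the members counted toward KOPTK1 here and in every setting that left out libraries. Without a filter on low values, 19484 genes differed, and 29 members. Genes without a count in any library were still left out there, and the number tested was not recorded, so no share is given. Leaving out each library in turn gave 14121 to 15286 genes, 6771 to 7560 higher in HPB-ALL and 7087 to 7754 in KOPTK1, 27 to 30 members (21 to 24, and 6), 26 to 27 other pathway genes and 10 to 12 pairs. Without libraries 1 to 3, 16070 genes and 12 pairs differed, and without libraries 4 to 6, 12318 genes and 9 pairs. The log2 difference of PFKP became 0.0157 with DESeq2 size factors, 0.0073 with library totals, 0.0703 with no filter, 0.0154 in the DESeq2 test and 0.0376 without libraries 1 to 3. That of PDK3 became 0.0103, 0.002, 0.065 and 0.0119 under the first 4 of these and 0.0299 without libraries 4 to 6. Leaving out each library gave -0.0135 to 0.0036 for PFKP, -0.0267 to 0.0212 for PDK3 and -0.0203 to 0.0202 for PFKFB3, and log2 ratio differences of -0.0289 to 0.0337 for MPC1/MPC2 and -0.0184 to 0.00214 for LDHA/LDHB. The MPC1/MPC2 value was -0.0119 without libraries 4 to 6. The cause of these turns was not tested.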
